A study of Pseudotaxus chienii and Amentotaxus argotaenia and Torreya grandis with 9 samples.

Results

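A set of 450 Trinity components, abundant in twigs of Amentotaxus argotaenia and Torreya grandis and nearly missing in twigs of Pseudotaxus chienii, is described here. A component is a connected group of assembled transcripts, and its level is the sum of TPM over all features whose IDs differ only in the final gene number. The members averaged at least 20 TPM in both A. argotaenia and T. grandis, with a P. chienii mean under 5% of the lower of these means. They were 450 of 5021 components that reached 20 TPM in both species and of 42956 components, built from 88609 features, in all. The members were thus chosen by the mean TPM of all 3 species, so the gap to P. chienii is described without a test. Pseudotaxus chienii, labelled as taxol-producing, and Amentotaxus argotaenia and Torreya grandis, labelled as non-taxol producing, gave 3 libraries each, all from fresh twigs with wood and needles of plants aged 3 years grown in the same stated conditions. With 1 species in the producing group, species and phenotype cannot be told apart, and no label states that a species was sampled from separate plants, so p-values measure the spread between these libraries, which may be technical.

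All 3 species are conifers of the yew family, Taxaceae. Taxol is a diterpenoid anticancer compound known from yews, made by a long pathway of oxidation and acylation steps on a taxane ring. Trinity builds transcripts from RNA-seq reads without a genome: reads are first gathered into read clusters, marked DN in the ID, each cluster is divided into components, marked c, and each component into gene-level features, marked g. A gene whose copies in different species have diverged can be assembled as separate features or separate components, so a component low in a species may be read as an unexpressed gene, an absent gene or a gene assembled elsewhere. The files pair no gene name with these IDs, and no sequence was used here, so components are given by ID and no function is assigned.

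The P. chienii levels of the 5021 components formed a large group around the level of the other species and a smaller one far below it. The P. chienii mean was under 1% of the lower mean in 178 components, between 1% and 2% in 168, and between 2% and 5% in the other 104 members. Only 14 components lay between 4% and 5%, while 77 lay between 5% and 10%, 242 between 10% and 25% and 505 between 25% and 50%. In 2426 components the P. chienii mean was at or above the lower mean of the other species. These ranges differ in width, so their counts alone do not show a gap at the limit. On a log scale the 5% limit lay in the sparse stretch between the groups. Since the libraries are bulk tissue, fewer cells of a type and less RNA per cell cannot be told apart in any of these levels.

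**Figure D1:**
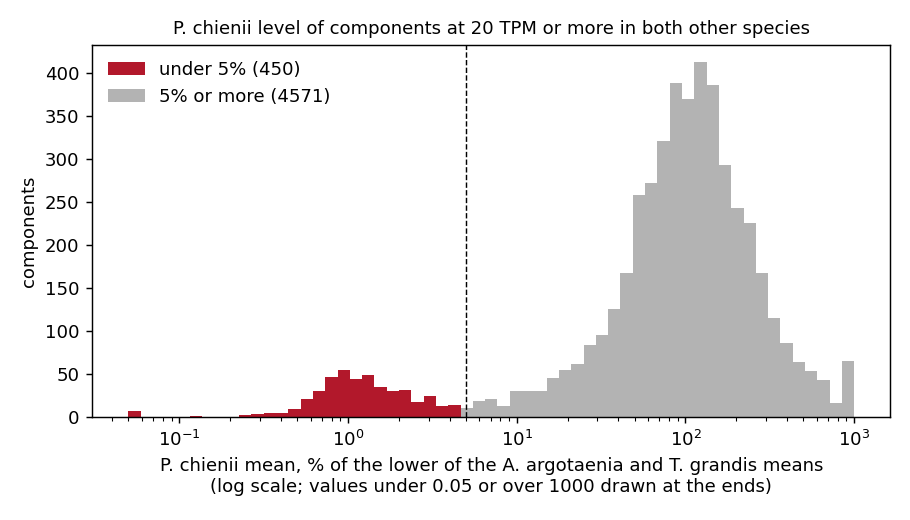
Number of components (vertical axis) by P. chienii mean as a percent of the lower of the A. argotaenia and T. grandis means (horizontal axis, log scale), for the 5021 components at 20 TPM or more in both of these species; the dashed line marks the 5% limit. The 450 members form a separate hump at the left, centred near 1%, and the other 4571 components peak near 100%.

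The components nearest to the limit show how it acted. Just inside it, TRINITY_DN48862_c1 had a P. chienii mean at 4.74% of the lower mean, TRINITY_DN36685_c0 at 4.63% and TRINITY_DN43252_c0 at 4.56%. TRINITY_DN43252_c0 was at 1.20, 0.52 and 2.24 TPM in the P. chienii libraries, at 26.4, 34.0 and 26.4 TPM in A. argotaenia and at 62.2, 67.1 and 97.5 TPM in T. grandis. Just outside it, TRINITY_DN44709_c3 was at 5.02%, TRINITY_DN45876_c0 at 5.04% and TRINITY_DN47798_c0 at 5.07%. TRINITY_DN47798_c0 stood at 26.8, 26.8 and 23.1 TPM in P. chienii, so a component can be excluded with a P. chienii level above that of most members. TRINITY_DN48862_c1 and TRINITY_DN36685_c0 were also among the members with the largest differences between A. argotaenia and T. grandis, whose values follow further on.

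The same rule was applied to the other pairs of species to show how often such gaps occurred. Of 4562 components at 20 TPM or more in P. chienii and A. argotaenia, 109 (2.39%) were under 5% in T. grandis. Of 4547 at that level in P. chienii and T. grandis, 77 (1.69%) were under 5% in A. argotaenia. The 450 members were 8.96% of their 5021. The 3 counts use the same 9 libraries and were not tested against each other; the relatedness of the species did not enter them.

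Each library summed to between 999890 and 999947 TPM, and since TPM holds no read counts the depth of each library is not known. Over the 39423 tested components, Pearson's r of log2(TPM + 1) between libraries of a species ranged from 0.908 to 0.967. The library least like its companions differed by species: P. chienii replicate 1, A. argotaenia replicate 2 and T. grandis replicate 3. These correlations run across components, which are not independent replicates.

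The members held a sizeable part of the transcript pool in the species where they were present. They made up 7.68%, 13.94% and 8.34% of the TPM in A. argotaenia replicates 1, 2 and 3, and 9.55%, 8.96% and 9.22% in T. grandis. In P. chienii they made up 0.0306%, 0.120% and 0.0729%. In replicate 2 of A. argotaenia, the highest library, a pair of components, TRINITY_DN41386_c1 and TRINITY_DN47447_c0, held 39.6% of the members' TPM. The pair held 3.96% and 6.91% of it in A. argotaenia replicates 1 and 3. Without this pair, singled out after its values were seen, the A. argotaenia libraries were at 7.38%, 8.41% and 7.76% and the T. grandis libraries at 8.71%, 8.08% and 8.10%. Replicate 2 thus remained the highest A. argotaenia library, by a smaller margin.

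Most members were of moderate level. The median lower mean was 39.3 TPM, close to the 39.7 TPM of the 4571 other components at 20 TPM or more in both species, and the range ran from 20.1 to 7218 TPM. In all, 181 members had a lower mean of at least 50 TPM, 93 of at least 100 TPM, 17 of at least 500 TPM and 8 of at least 1000 TPM. The median member level was 51.6, 54.2 and 61.1 TPM in the A. argotaenia libraries and 61.0, 57.8 and 62.6 TPM in the T. grandis libraries. It was 0.12, 1.005 and 0.55 TPM in P. chienii replicates 1, 2 and 3. In 449 of the 450 members every P. chienii library was below every library of the other species, which the rule largely fixes. The exception, TRINITY_DN34097_c0, was at 1.96 TPM in P. chienii replicate 2 and at 0.38 TPM in A. argotaenia replicate 2, against 96.2 and 124 TPM in A. argotaenia replicates 1 and 3.

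**Figure D2:**
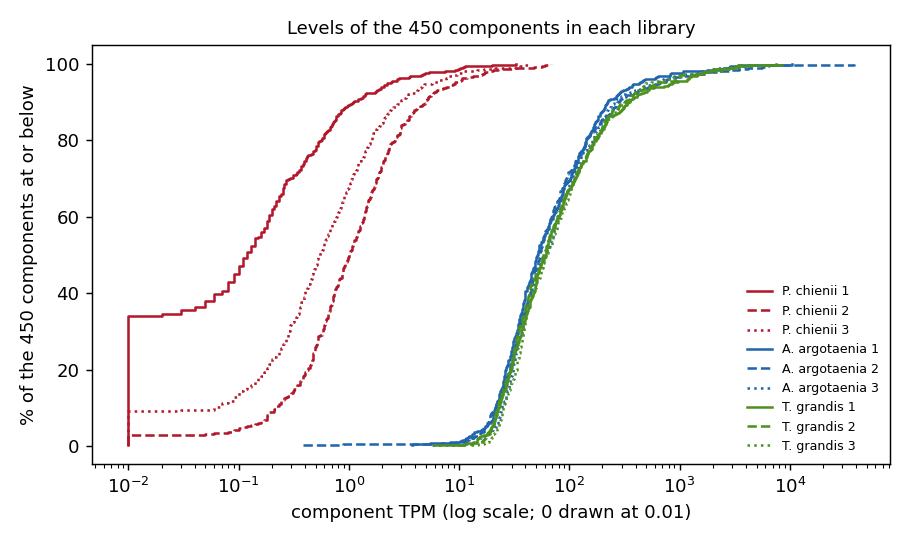
Cumulative share of the 450 members (vertical axis, percent) at or below a given component TPM (horizontal axis, log scale, with 0 drawn at 0.01), with 1 line per library. The A. argotaenia and T. grandis lines lie together with medians from 51.6 to 62.6 TPM, and the P. chienii lines lie far to the left and apart from each other, with medians of 0.12, 1.005 and 0.55 TPM.

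Few members were listed at 0 throughout P. chienii. Only 7 had 0 TPM in all 3 of its libraries, 199 were under 1 TPM in all 3, and 43 were at 1 TPM or more in all 3. The most abundant of the 7 were TRINITY_DN30539_c0, TRINITY_DN31981_c0 and TRINITY_DN52964_c0, each a single feature. TRINITY_DN30539_c0 stood at 30.3, 30.8 and 40.3 TPM in A. argotaenia and at 38.3, 34.7 and 37.0 TPM in T. grandis. TRINITY_DN31981_c0 stood at 30.0, 32.3 and 38.2 TPM and at 34.7, 40.1 and 37.8 TPM in the same order. TRINITY_DN52964_c0 stood at 39.4, 26.6 and 33.6 TPM and at 42.4, 39.4 and 37.3 TPM. The A. argotaenia and T. grandis libraries overlapped at all 3 of these components. The read cluster of TRINITY_DN52964_c0 also held TRINITY_DN52964_c1, which was at 28.2, 39.4 and 37.9 TPM in P. chienii, between 7.58 and 9.19 TPM in A. argotaenia and between 15.95 and 18.35 TPM in T. grandis.

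The 10 most abundant members, ranked by the lower of the A. argotaenia and T. grandis means, held between 35.6% and 59.3% of the members' TPM in the A. argotaenia libraries and between 32.5% and 36.7% in the T. grandis libraries. TRINITY_DN41386_c1 led them, at 2877, 38469.9 and 5073 TPM in A. argotaenia, at 6784, 6986 and 7883 TPM in T. grandis, and 32.8, 48.3 and 35.5 TPM in P. chienii. Replicate 2 of A. argotaenia lay far above the others, and the remaining A. argotaenia libraries lay below all of T. grandis. TRINITY_DN46281_c0 was at 6403, 4197 and 4787 TPM in A. argotaenia, at 3467, 3172 and 2595 TPM in T. grandis and 9.74, 61.0 and 37.6 TPM in P. chienii. TRINITY_DN45603_c0 was at 10549, 5615 and 7788 TPM, at 3186, 2795 and 2222 TPM and at 7.41, 68.0 and 38.3 TPM in the same order. At both of these components every A. argotaenia library was above every T. grandis library.

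TRINITY_DN47447_c0 had the widest ratio between libraries of a species among these 10, with 168, 16781 and 686 TPM in A. argotaenia against 1649, 1814 and 3285 TPM in T. grandis and 10.2, 7.21 and 8.01 TPM in P. chienii. TRINITY_DN38505_c0, a single feature, was at 215, 2138 and 456 TPM in A. argotaenia, at 1901, 2884 and 4108 TPM in T. grandis and 3.49, 16.2 and 6.50 TPM in P. chienii. In both, replicate 2 was the highest A. argotaenia library and replicate 3 the highest T. grandis library. The P. chienii libraries stood in the same order as those of A. argotaenia at TRINITY_DN38505_c0. At TRINITY_DN47447_c0 their order differed from that of both other species. TRINITY_DN47216_c0 was steadier, at 1761, 2904 and 1475 TPM in A. argotaenia and at 1952, 1858 and 2427 TPM in T. grandis, with 4.06, 20.2 and 14.4 TPM in P. chienii. TRINITY_DN45409_c0 was at 599, 1031 and 1148 TPM in A. argotaenia, at 1470, 716 and 468 TPM in T. grandis and 1.77, 16.8 and 8.30 TPM in P. chienii. At these last components the A. argotaenia and T. grandis libraries overlapped.

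**Figure D3:**
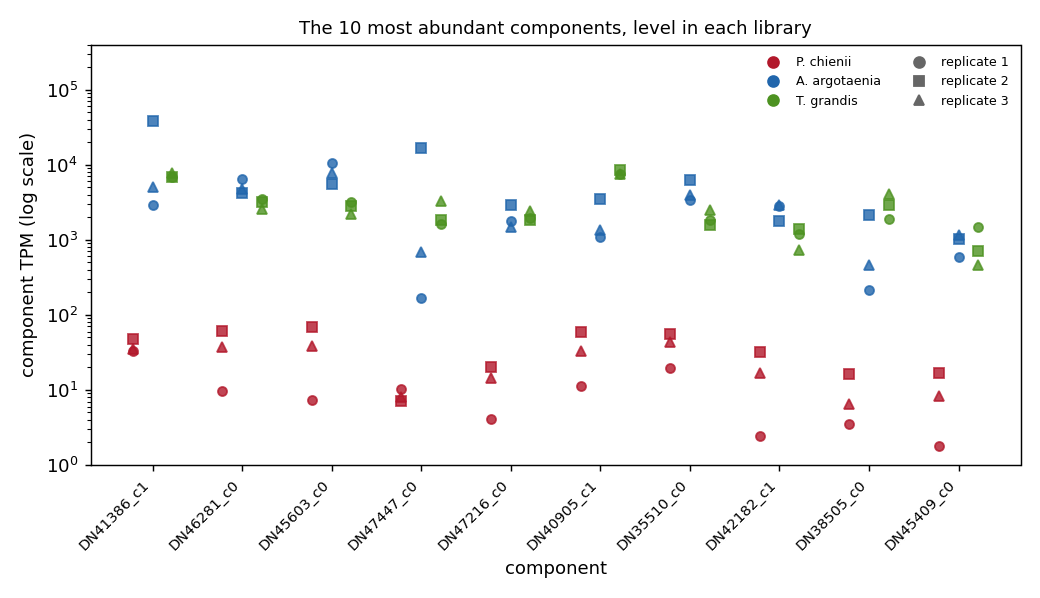
Component TPM (vertical axis, log scale) of the 10 members with the highest lower mean, with 1 point per library, coloured by species and shaped by replicate number. The P. chienii points lie between 1.77 and 68.0 TPM and the others at 168 TPM or more, and A. argotaenia replicate 2 stands far above the other A. argotaenia points at TRINITY_DN41386_c1 and TRINITY_DN47447_c0.

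A. argotaenia and T. grandis were compared with each other, since the rule sets a floor for both but not which of them is higher. The test was limma on log2(TPM + 1) over all 39423 components tested, and calls needed a difference of 2-fold or more with an adjusted p under 0.05. Of the 450 members, 57 were higher in A. argotaenia and 80 higher in T. grandis, so 30.4% were called, against 42.3% of all components tested. All components tested include those found in only 1 of the species, and among the 4571 other components at 20 TPM or more in both species 29.1% were called (29.3% with the members included). The members' share was near that of these other components at this setting, but not at every setting. By direction, 12.7% of the members were called higher in A. argotaenia and 17.8% higher in T. grandis, against 12.8% and 16.4% of those other components. The median log2 fold change of A. argotaenia over T. grandis was -0.12 over the members and -0.06 over the others, and the median size of the change, whatever its sign, was 0.75 and 0.61. At least 4-fold calls numbered 42, or 9.33% of the members, against 7.09% of the other components and 24.4% of all tested. With a pseudocount of 0.1, 82 members (18.2%) were called, 32 higher in A. argotaenia and 50 higher in T. grandis, against 29.3% of the other components and 42.3% of all tested. With no minimum fold, 181 members (40.2%) were called, against 54.9% of the other components and 50% of all tested. All 9 libraries enter the spread of these fits, also those of P. chienii, whose low levels at the members were set by the rule. The shares therefore do not rest on A. argotaenia and T. grandis alone. With only the 6 libraries of these species and the first thresholds, 136 members (30.2%) were called, against 27.9% of the other components and 39.7% of all tested.

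**Figure D4:**
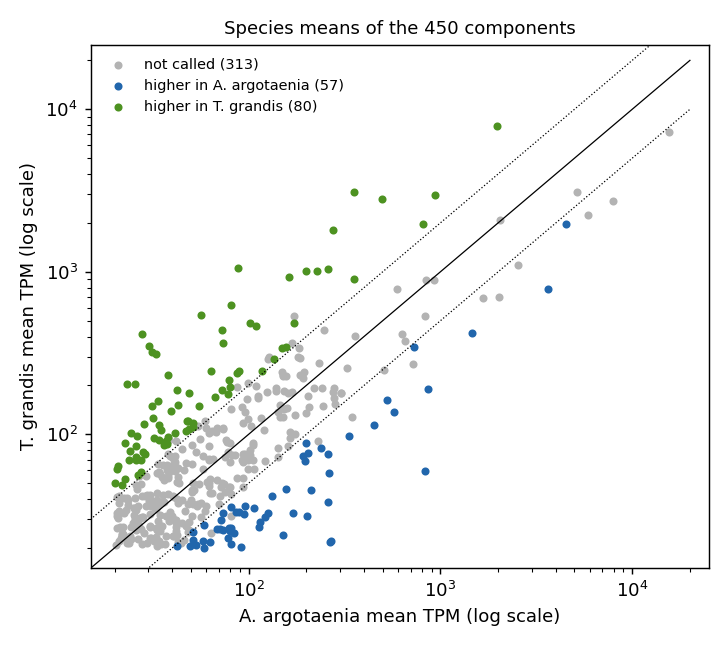
Mean TPM of the 450 members in A. argotaenia (horizontal axis) and T. grandis (vertical axis), both on log scales; the solid line marks equal means, the dotted lines a 2-fold difference of the means, and colours mark the 57 members called higher in A. argotaenia and the 80 called higher in T. grandis. Called members flank a grey band of 313 members not called, and the most abundant members lie in both parts.

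Of the 10 most abundant members, 3 were called. TRINITY_DN40905_c1 was at 1078, 3501 and 1360 TPM in A. argotaenia and at 7584, 8545 and 7547 TPM in T. grandis, with 11.3, 59.8 and 33.5 TPM in P. chienii, and was called higher in T. grandis, the log2 change of A. argotaenia over T. grandis being -2.19 ± 0.60 (SE; adjusted p = 0.0145, limma). Without A. argotaenia replicate 1 or replicate 3 the adjusted p was 0.0587 or 0.0560. TRINITY_DN35510_c0 was at 3399, 6249 and 3937 TPM in A. argotaenia, at 1818, 1559 and 2536 TPM in T. grandis and 19.9, 56.2 and 43.2 TPM in P. chienii, higher in A. argotaenia by 1.18 ± 0.40 (SE; adjusted p = 0.0356, limma). That call was lost without A. argotaenia replicate 2 or 3, T. grandis replicate 1 or 2, or P. chienii replicate 3, with adjusted p from 0.0586 to 0.117. TRINITY_DN38505_c0, whose values are given above, was called higher in T. grandis, although the libraries of the species overlapped, at -2.25 ± 0.82 (SE; adjusted p = 0.0488, limma), and the call was lost without any single library other than A. argotaenia replicate 2, with adjusted p from 0.0527 to 0.165.

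The other 7 of these members did not pass. TRINITY_DN42182_c1, at 2833, 1809 and 2954 TPM in A. argotaenia, at 1207, 1386 and 724 TPM in T. grandis and 2.40, 32.3 and 16.7 TPM in P. chienii, had a log2 difference of 1.21 ± 0.73 (SE; adjusted p = 0.222, limma). TRINITY_DN45603_c0 had 1.51 ± 0.67 (SE; adjusted p = 0.0985, limma). Both passed without P. chienii replicate 1, at adjusted p of 0.0242 and 0.00596; in this fit all 9 libraries share 1 estimate of the spread. TRINITY_DN47447_c0 had -0.78 ± 1.39 (SE; adjusted p = 0.755, limma) and, without A. argotaenia replicate 2, -2.65 with adjusted p = 0.00641. TRINITY_DN41386_c1 had 0.20 ± 0.81 (SE; adjusted p = 0.946, limma), which turned to -0.91 (adjusted p = 0.0264, limma), short of 2-fold, without that library.

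The largest changes toward A. argotaenia among the called members were 5 components at modest level in T. grandis. TRINITY_DN36685_c0 was at 653, 908 and 933 TPM in A. argotaenia, at 49.2, 51.3 and 78.6 TPM in T. grandis and 1.35, 6.18 and 0.76 TPM in P. chienii. Its log2 fold change was 3.79 ± 0.48 (SE; adjusted p = 0.000186, limma), the largest toward A. argotaenia, and the groups did not overlap. TRINITY_DN48862_c1, at 73.1, 329 and 397 TPM in A. argotaenia and at 5.94, 27.4 and 32.3 TPM in T. grandis, was higher by 3.51 ± 0.75 (SE; adjusted p = 0.00411, limma). Replicate 1 was the lowest library of both species there, and the value was 4.27 without A. argotaenia replicate 1 and 2.79 without T. grandis replicate 1.

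TRINITY_DN37668_c0 was at 202, 395 and 210 TPM in A. argotaenia, at 22.4, 17.5 and 26.2 TPM in T. grandis and 0.19, 1.46 and 1.10 TPM in P. chienii, which gave a log2 difference of 3.50 ± 0.35 (SE; adjusted p = 4.40e-05, limma). TRINITY_DN37327_c1, built of 10 features, was at 268, 306 and 206 TPM in A. argotaenia and at 55.5, 34.4 and 25.2 TPM in T. grandis, which gave a log2 difference of 2.78 ± 0.40 (SE; adjusted p = 0.000437, limma). TRINITY_DN35753_c0 was at 205, 182 and 218 TPM in A. argotaenia and at 27.2, 30.5 and 37.0 TPM in T. grandis, with 2.64 ± 0.25 (SE; adjusted p = 3.22e-05, limma). None of these 3 overlapped between the species.

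Toward T. grandis the largest change was that of TRINITY_DN52255_c1, at 248, 241 and 450 TPM in T. grandis, 3.75, 86.0 and 9.06 TPM in A. argotaenia and 0.79, 1.25 and 1.39 TPM in P. chienii. Its log2 fold change of A. argotaenia over T. grandis was -4.22 ± 0.91 (SE; adjusted p = 0.00408, limma). Replicate 2 of A. argotaenia stood apart there: the value was -5.44 without it and -3.35 without A. argotaenia replicate 1. Without replicate 2 the A. argotaenia mean would also be under the floor of 20 TPM, so this component is a member through that library.

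TRINITY_DN53624_c1 was at 532, 361 and 356 TPM in T. grandis and 12.1, 31.4 and 40.04 TPM in A. argotaenia, which gave a log2 difference of -3.98 ± 0.51 (SE; adjusted p = 0.000201, limma). TRINITY_DN45864_c0, a single feature, was at 312, 359 and 383 TPM in T. grandis and 13.1, 43.2 and 34.9 TPM in A. argotaenia, with -3.64 ± 0.41 (SE; adjusted p = 9.16e-05, limma). TRINITY_DN50843_c0 was at 1430.5, 992 and 750.2 TPM in T. grandis and 86.6, 76.2 and 102 TPM in A. argotaenia, with -3.53 ± 0.54 (SE; adjusted p = 0.000581, limma). TRINITY_DN43249_c2 was at 587, 540.3 and 490.5 TPM in T. grandis and 20.5, 67.6 and 81.4 TPM in A. argotaenia, with -3.44 ± 0.45 (SE; adjusted p = 0.000233, limma). Every T. grandis library was above every A. argotaenia library at these 4 components. Of the 137 called members, 135 had no overlap between these species, but a call itself favours such separation. Over all members it was less frequent than among the other components at 20 TPM or more in both species. No overlap was found at 245 members (54.4%) and at 2898 of those other components (63.4%), shares that were not tested.

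Levels varied more between libraries of a species at the members than at the other components of like level. The median SD of log2(TPM + 1) over the 3 A. argotaenia libraries was 0.331 at the members and 0.229 at the 4571 others, and over the T. grandis libraries 0.244 and 0.160. These are descriptions without a test. A. argotaenia replicate 2 was at least 4-fold above both other A. argotaenia libraries at 12 members and at least 4-fold below both at 7, while no other library of A. argotaenia or T. grandis was 4-fold above its companions at any member. Replicate 1 was at least 4-fold below both of its companions at 4 members in A. argotaenia and at 1 in T. grandis. Of the 12, T. grandis replicate 3 was the highest T. grandis library at 9. Several of the 12 reached the floor of 20 TPM in A. argotaenia only through replicate 2, so the rule admitted them by that library. TRINITY_DN38269_c0 was at 3.84 and 10.75 TPM and TRINITY_DN48595_c1 at 11.45 and 5.67 TPM in A. argotaenia replicates 1 and 3. The same counts were not made over the 4571 other components. Examples with the highest levels, beside the 3 given above, were TRINITY_DN40178_c2 at 22.8, 196 and 40.4 TPM and TRINITY_DN43380_c0 at 24.3, 125 and 28.7 TPM in A. argotaenia. Among the 7, TRINITY_DN34380_c0 was at 132, 0.88 and 70.7 TPM in A. argotaenia and at 113, 96.6 and 99.5 TPM in T. grandis. These examples were chosen after their values were seen.

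Which feature of a component carried its level was not used by the rule. The members held from 1 to 13 features, with a median of 2, and 138 of them (30.7%) were a single feature, against 19.0% of the 4571 other components. Among the 312 members of several features, the most abundant feature was the same in A. argotaenia and T. grandis in 135 (43.3%) and different in 177 (56.7%). Of the 3701 other components of several features, 74.1% had the same leading feature and 25.9% different ones. The gap was present at each size: 50.5% of the members of 2 features shared their leader against 89.7% of the others, 52.7% against 76.4% at 3 to 4 features and 25.3% against 58.5% at 5 or more. These shares were not tested. Calls between the species were made in 28.9% of the 273 members with a shared leader, single features included, and in 32.8% of the 177 with different leaders.

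Where the leaders differed, the leading feature of each species held little of the component in the other by the median, though not in every member. In these 177 members the leading feature of A. argotaenia held a median of 84.6% of the component in A. argotaenia and 0.54% of it in T. grandis. The leading feature of T. grandis held 85.8% there and 0.238% in A. argotaenia. In 54 of the 177 (30.5%) each leader held at least 90% of the component in its own species, against 107 or 11.2% of the 959 other components with different leaders. In TRINITY_DN35510_c0, TRINITY_DN35510_c0_g1 held 99.0% in A. argotaenia, at 3357, 6196 and 3901 TPM, and only 22.4, 14.4 and 7.60 TPM in T. grandis. TRINITY_DN35510_c0_g2 held 97.3% of it in T. grandis, at 1734.6, 1509.5 and 2508.7 TPM and 7.87, 18.0 and 6.44 TPM in A. argotaenia. Other abundant members were less divided. The A. argotaenia leader TRINITY_DN42182_c1_g2 held 99.9% of its component in A. argotaenia and 24.8% in T. grandis. TRINITY_DN45409_c0_g2 held 53.1% and 30.8% of its own in the same order.

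TRINITY_DN40905_c1 was led in A. argotaenia by TRINITY_DN40905_c1_g2, at 1055, 3468 and 1313 TPM there and 8.63, 3.77 and 3.32 TPM in T. grandis, and in T. grandis by TRINITY_DN40905_c1_g5, at 4934, 6038 and 5048 TPM there and 6.87, 5.86 and 18.5 TPM in A. argotaenia. TRINITY_DN47447_c0 was led in A. argotaenia by TRINITY_DN47447_c0_g2, which held 54.2% of it there at 96.0, 9181 and 289 TPM, and in T. grandis by TRINITY_DN47447_c0_g7, which held 99.4% at 1640, 1808 and 3258 TPM. By contrast, TRINITY_DN41386_c1, TRINITY_DN46281_c0 and TRINITY_DN45603_c0 were led in both species by 1 and the same feature, which held from 99.76% to 100% of the component.

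**Figure D5:**
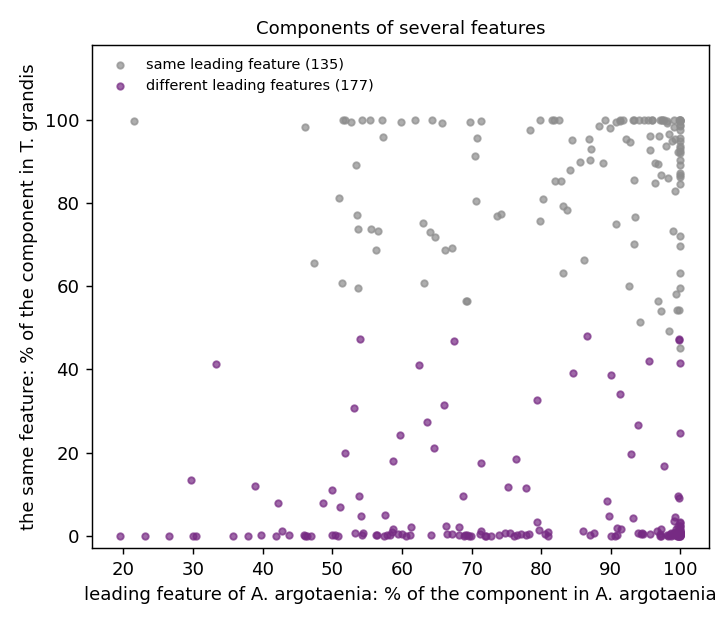
For the 312 members of several features, the percent of the component held in A. argotaenia by its leading feature there (horizontal axis) and the percent held by the same feature in T. grandis (vertical axis). The 177 members with different leading features lie mostly along the bottom, with a median of 0.54% in T. grandis, while the 135 with the same leader lie in the upper part.

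The small P. chienii levels sat mostly on features of the other species. Of 443 members above 0 in P. chienii, 183 had a single feature, or a pair with different leaders, so that the most abundant P. chienii feature had to be a leader of A. argotaenia or T. grandis. In 215 (82.7%) of the other 260 it was such a leader too. Only 3 members had a leading P. chienii feature that was higher in P. chienii than in both others. TRINITY_DN41376_c0_g2 was at 3.58, 1.42 and 3.59 TPM in P. chienii and at 0 in the others, TRINITY_DN38932_c1_g3 at 3.38, 2.26 and 2.89 TPM, and TRINITY_DN45409_c0_g5 at 0.22, 5.45 and 2.31 TPM. Where the leaders of A. argotaenia and T. grandis differed and P. chienii was above 0, its level was led by the A. argotaenia feature in 98 members, by the T. grandis feature in 52 and by another in 25.

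The P. chienii libraries differed among themselves at the members. Replicate 2 was the highest of the 3 at 336 members, replicate 3 at 89 and replicate 1 at 13, and the members summed to 306, 1201 and 729 TPM in replicates 1, 2 and 3. At the 273 members with a shared leader, that feature had a median of 0.128%, 1.47% and 0.726% of its A. argotaenia mean in the 3 libraries. At the 177 with different leaders, the A. argotaenia feature was at 0%, 0.847% and 0.440% of its A. argotaenia mean, and the T. grandis feature at 0%, 0.462% and 0.222% of its T. grandis mean. Features outside the members that were abundant in A. argotaenia alone (at least 100 TPM there and under 2% of that in both other species, n = 234) had medians of 0.0942%, 0.864% and 0.427% in the same libraries. Those of T. grandis alone (n = 264) had 0.0528%, 0.548% and 0.316%. The libraries thus kept the same order at features chosen as particular to other species. Those features were picked by low means in P. chienii, and the source of its low levels, there or at the members, was not tested.

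The P. chienii level was finally sought in the other components of each member's read cluster, which the rule did not use. Of the 450 members, 306 (68.0%) were the only component of their cluster, so nothing further could be counted there. In the other 144, the remaining components held a P. chienii mean of at least 5% of the member's lower mean in 81 (56.2% of 144), at least 50% in 43 (29.9%) and at least 100% in 28 (19.4%). Among the 974 other components at 20 TPM or more in both species that lay in clusters of several, the shares were 53.0%, 22% and 12.3%. A cluster can hold different genes of a family, and whether a pair of its components are counterparts was not examined. With TPM summed over whole clusters, 367 of the 450 members lay in clusters that met the rule.

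The 5 highest such P. chienii levels were of both kinds, in components seen almost only in P. chienii and in components seen in all 3 species. Beside TRINITY_DN41386_c1, the most abundant member, TRINITY_DN41386_c0 was at 599.5, 739.3 and 734.6 TPM in P. chienii and at no more than 2.14 TPM in any other library. TRINITY_DN39171_c1 was at 611, 629 and 663 TPM in P. chienii and at 2.07 TPM or less elsewhere. The member beside it, TRINITY_DN39171_c2, was at 0.50, 4.87 and 2.25 TPM in P. chienii, at 371, 243 and 299 TPM in A. argotaenia and at 167, 213 and 162 TPM in T. grandis. This pair of components was thus split by species with no overlap. The cluster held 3 components, and the rest of it is not described here. TRINITY_DN51853_c1 stood at 556, 1067 and 702 TPM in P. chienii and between 5.43 and 18.6 TPM in the others. Its member TRINITY_DN51853_c0 showed the reverse, with 0.90, 3.91 and 2.02 TPM in P. chienii, at 265, 238 and 242 TPM in A. argotaenia and at 445, 412 and 458 TPM in T. grandis.

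In the remaining pair of clusters, of 3 components each, the other component most abundant in P. chienii was present in all species. TRINITY_DN43674_c1 was at 1096, 2098 and 2223 TPM in P. chienii, at 156, 108 and 140 TPM in A. argotaenia and at 132, 151 and 152 TPM in T. grandis, while the member TRINITY_DN43674_c2 was at 2.87, 6.32 and 4.55 TPM in P. chienii, at 220, 376 and 239 TPM in A. argotaenia and at 127, 212 and 161 TPM in T. grandis. TRINITY_DN53603_c2 was at 1100, 1269 and 1230 TPM in P. chienii and between 265 and 350 TPM in the others, beside the member TRINITY_DN53603_c0 at 0.16, 0.40 and 0.14 TPM in P. chienii, at 16.9, 18.6 and 25.2 TPM in A. argotaenia and at 61.3, 46.2 and 42.2 TPM in T. grandis. A component at least at 50% of the member's lower mean in P. chienii and under 5% of its own P. chienii mean in both others accompanied 10 of the 144 members (6.94%), against 7.91% of the 974 other components. That count was made after values of these clusters were seen, and the 2 shares lie close together.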

How the data were processed

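RNA-seq was measured in 9 libraries, 3 per species. The values deposited by the authors are in TPM, read from the values because the headers name no unit. Trinity is named per the labels' titles and in the feature IDs; for the quantifier, versions and filters the sources used here give nothing. Depth is unknown, so no counting interval is given and no count test was used. Species and replicate numbers came from the sample titles. TPM was summed per component in Python 3.11.15 with pandas 2.3.3, and figures were drawn with matplotlib 3.10.9. A. argotaenia was compared with T. grandis by limma 3.58.1 (R 4.3.3) on log2(TPM + 1) with its trend option, in 1 fit of all 9 libraries with species as the only term, on components at 1 TPM or more in at least 3 libraries. Tests were two-sided with Benjamini-Hochberg adjustment over all components tested, and a fold change refers to log2(TPM + 1), which understates those of low components. The step was tested on simulated data. P. chienii was drawn there around the mean level of the other species, so its low levels at the members were not covered. The members, lists and alternatives were chosen with earlier results of these data known. Named members were the 10 highest by lower mean, the 5 largest called changes in each direction, those at the limit, the 3 highest at 0 in P. chienii, the 5 with most P. chienii TPM in other components of their cluster and the 3 highest led by different features. Gene lists were not counted, since the files hold no gene names.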

Additional observations from a re-analysis of the deposited data

How the results depend on the processing

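The number of members was 845 with a floor of 10 TPM and 181 with a floor of 50 TPM, 346 and 527 with P. chienii limits of 2% and 10%, and 335 when every P. chienii library had to lie under 5% of the lowest other library. It ranged from 436 to 472 with 1 library left out, and was 423, of which 397 were among the 450, without P. chienii replicate 1, A. argotaenia replicate 2 and T. grandis replicate 3 together, an alternative chosen after seeing the data. Of 310 members with at least 2 features at 1 TPM or more, 133 had the same leader; with 1 library left out the count of shared leaders, 273 in all, was 269 to 274. Members with a P. chienii level of at least 5% in their cluster were 80 to 83 with 1 P. chienii library left out, against 81. Called members, 137 in all, were 82 with a pseudocount of 0.1 (where the other 4571 components at 20 TPM or more in both species gave 1341 calls, against 1332 with a pseudocount of 1, and all components 16661) and 42 at 4-fold or more, and 120 to 150 with 1 library left out. Over all components the count of 16671 was 9978 with a pseudocount of 5, 8352 when means under 5 TPM were dropped, 9636 at 4-fold or more, and 15827 to 16892 with 1 library left out. With the replicate number as a block 136 members and 16535 components were called. No label states that the numbers pair the libraries. The deviations of same-numbered A. argotaenia and T. grandis libraries correlated at 0.238, -0.214 and -0.304. Those of A. argotaenia replicate 2 and T. grandis replicate 3 correlated at 0.395, the highest of all pairings of these species' libraries. The other pairings ranged from -0.332 to 0.238. Of the 20 members tested by name, 14 kept their call or lack of it in all 19 alternatives, 3 lost it under at least 1 (TRINITY_DN40905_c1, TRINITY_DN35510_c0, TRINITY_DN38505_c0) and 3 gained it (TRINITY_DN45603_c0, TRINITY_DN47447_c0, TRINITY_DN42182_c1). With the 6 compared libraries alone, the first 3 of these were not called, at adjusted p of 0.113, 0.226 and 0.116 (limma). Unknown depth limits what the levels under 1 TPM can show.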

Other observations

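At 20 members, picked after the values were seen, the P. chienii level was at least 1% of the lower mean in replicate 1 and within 2-fold across its 3 libraries. TRINITY_DN46559_c0 had the highest such level, at 28.0, 22.8 and 21.4 TPM in P. chienii against means of 842 TPM in A. argotaenia and of 886 TPM in T. grandis, and the same feature led it in all 3 species. TRINITY_DN53334_c3 was at 10.9, 10.3 and 11.0 TPM in P. chienii, with means of 326 TPM in A. argotaenia and of 256 TPM in T. grandis. TRINITY_DN38932_c1 was at 8.11, 5.77 and 5.81 TPM in P. chienii and was led there by a feature that was at or near 0 in the others.

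A. argotaenia replicate 2 was the highest library of its species at 165 members, and at 86 of these T. grandis replicate 3 was the highest of its own, against 45 where it was the lowest. A. argotaenia replicate 2 was the lowest at 209 members, of which T. grandis replicate 3 was the lowest at 93 and the highest at 57. Over all 450 members T. grandis replicate 3 was the highest of its species at 176 and the lowest at 158. These counts were not made over the other components. Across the 450 members the deviations of these libraries from their species means correlated at 0.150, and across the 4571 other components at 20 TPM or more in both species at 0.304, on log2(TPM + 1). The labels give the libraries different replicate numbers and nothing that they share.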
